A study of Mus musculus with 18 samples.

Results

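The genes described here carry Indian hedgehog (IHH) and parathyroid hormone-related protein (PTHrP) signaling. They are the ligand genes Ihh and Pthlh, the receptor genes Pth1r, Ptch1 and Smo, the transcription factor genes Gli1, Gli2 and Gli3, and the inhibitor gene Hhip. They were taken by symbol and make up 9 of the 38243 genes counted, and all 9 were among the 14881 genes that passed the filter on low counts. The 18 RNA libraries came from 6 female embryos of the C57BL/6 background at embryonic day 16.5. Laser capture microdissection gave libraries of mandibular bone, Meckel's cartilage (MC) and mandibular condylar cartilage, with 3 libraries in each group of genotype and tissue. The labels number the libraries within a group and do not say which came from the same embryo. Of these embryos 3 were Fgfr2+/S252W, heterozygous for the substitution in FGFR2 found in Apert syndrome, and 3 were Fgfr2+/+ littermates without it. No cell type or time limits the mutation by the labels, and gene counts do not show from which allele a fragment came.

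In growing cartilage, prehypertrophic chondrocytes secrete IHH, and cells nearer the end of the cartilage and in the perichondrium make PTHrP in answer to it. PTHrP acts through its receptor PTH1R to keep chondrocytes from becoming hypertrophic, which closes a feedback loop that sets where hypertrophy begins. IHH itself binds PTCH1, which frees SMO from inhibition and lets the GLI factors act on their targets, among them Ptch1, Gli1 and Hhip. The condylar cartilage of the jaw is a secondary cartilage that turns into bone along such a front, while MC is a rod beside which the mandibular bone forms.

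Marker genes were used to check the labelled tissues. The 20 genes of resting and proliferating chondrocytes summed to between 42267 and 50077 CPM (fragments scaled by TMM library size, here the normalized count) in the 6 condylar libraries and to between 1682 and 2837 CPM in the 6 bone libraries. In MC the same sum was 1398, 4893 and 5039 CPM in the Fgfr2+/+ libraries and 12665, 3737 and 3626 CPM in the Fgfr2+/S252W libraries. MC libraries thus had far less RNA of cartilage matrix genes than condylar libraries, and replicate 1 of Fgfr2+/+ MC had less than every bone library. That replicate also had 209 CPM of Col2a1, the main collagen gene of cartilage, where the other MC libraries had between 1498 and 6894 CPM. It had 227 CPM of Ibsp, where they had between 1.79 and 9.19 CPM. Ibsp was listed as a marker of osteoblasts and of hypertrophic chondrocytes alike. Over the whole osteoblast list, MC sums were 2829 to 6350 CPM in Fgfr2+/+ and 3013 to 4877 CPM in Fgfr2+/S252W embryos. Replicate 1 of Fgfr2+/+ MC correlated with the other libraries of its group at r of 0.889 and 0.891, the lowest values among same-group pairs. Replicate 3 of both condylar groups stood apart in another way. The 17 osteoblast markers summed to 17909 and 28283 CPM there, and to between 7919 and 9734 CPM in the other 4 condylar libraries. The share of fragments from Gm42418 also moved with tissue, at 24.1% to 39.4% in MC, 10.9% to 20.2% in condylar cartilage and 5.58% to 9.33% in bone. In bone it was 5.58% to 6.49% in Fgfr2+/S252W and 8.57% to 9.33% in Fgfr2+/+ embryos. With this gene and the mitochondrial genes left out of the fit, no member gained or lost a call. Values without replicate 1 of Fgfr2+/+ MC, or without both condylar replicates 3, are given beside results that they moved. In bulk tissue fewer cells of a type cannot be told apart from less RNA per cell.

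**Figure D1:**
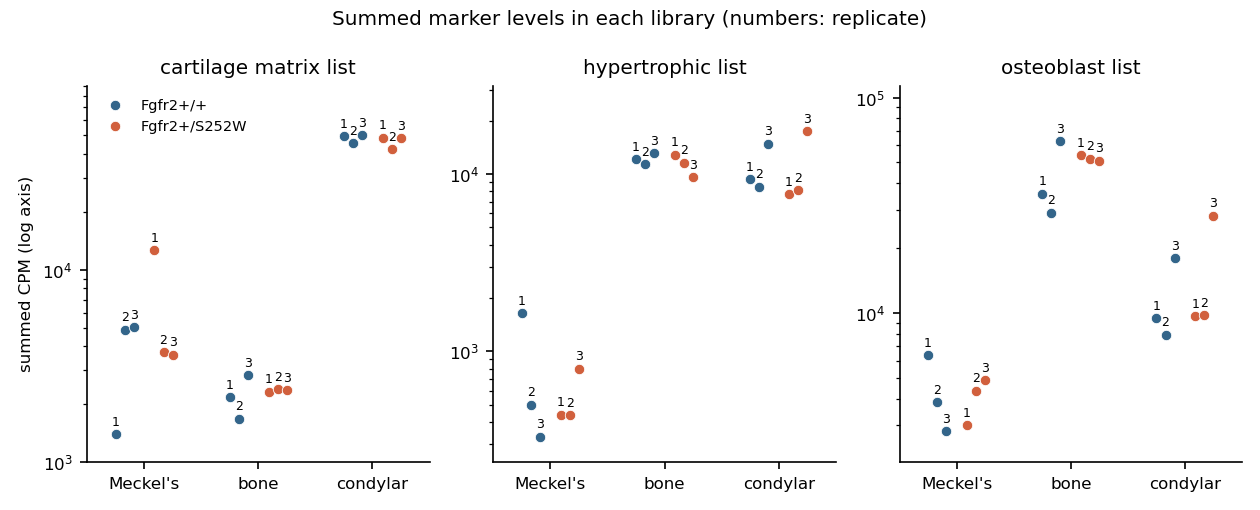
Summed normalized counts (CPM, log axis) of the genes of resting and proliferating chondrocytes (cartilage matrix list), of the prehypertrophic and hypertrophic list and of the osteoblast list in each library, with 1 point per library, numbered by replicate. Replicate 1 of Fgfr2+/+ MC, at 1398 CPM, is the lowest library for cartilage matrix genes, and both condylar replicates 3 are the highest condylar libraries for osteoblast genes.

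The ligand genes were high in opposite cartilages. Coordinates below are on mm10 (GRCm38), as the deposited files give them. Ihh (ENSMUSG00000006538, chr1:74945319-74951651, minus strand) had normalized counts of 67.7, 65.4 and 114 CPM in the condylar libraries of Fgfr2+/+ embryos and of 60.6, 57.3 and 109 CPM in those of Fgfr2+/S252W embryos. In bone it had 1.18, 1.096 and 1.51 CPM in Fgfr2+/+ and 1.08, 0.804 and 1.70 CPM in Fgfr2+/S252W embryos, which rests on 15 to 32 fragments per library. In MC no fragment of Ihh was counted in any of the 6 libraries. The 3 tissues did not overlap, with the condylar cartilage at the top and MC at 0. A count of 0 allows up to 3 fragments over a group, equal to 0.137 CPM in Fgfr2+/+ and 0.163 CPM in Fgfr2+/S252W MC, so Ihh was at least 593-fold higher in condylar cartilage than in MC in Fgfr2+/+ embryos and at least 434-fold higher in Fgfr2+/S252W embryos. Against bone the fitted difference was 61.1-fold in Fgfr2+/+ (log2 fold change 5.93, SE 0.51, limma adjusted p = 2.68e-08) and 61.8-fold in Fgfr2+/S252W embryos (log2 fold change 5.95, SE 0.49, limma adjusted p = 1.21e-08).

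Pthlh (ENSMUSG00000048776, chr6:147252101-147264167, minus strand), which encodes PTHrP, had 3.48, 12.7 and 26.3 CPM in Fgfr2+/+ MC and 15.4, 25.5 and 23.9 CPM in Fgfr2+/S252W MC. In bone its normalized counts were 1.18, 0.658 and 0.448 CPM in Fgfr2+/+ and 0.256, 0.179 and 0.106 CPM in Fgfr2+/S252W embryos, from 2 to 18 fragments per library. In the condylar cartilage 14 fragments were counted in replicate 3 of Fgfr2+/+ embryos, or 1.29 CPM, and none in the other 5 libraries. All 6 MC libraries lay above all bone and condylar libraries, and the lowest of them was the replicate that stood apart. Pthlh was 11.9-fold higher in MC than in bone in Fgfr2+/+ embryos (log2 fold change 3.58, SE 0.85, limma adjusted p = 0.00341). Without replicate 1 of Fgfr2+/+ MC this log2 fold change was 4.62 (limma adjusted p = 1.57e-05), and without replicate 3 it was 2.93, also past the threshold. In Fgfr2+/S252W embryos, with 2 to 5 fragments in each bone library, the same comparison gave 6.71 (SE 1.05, limma adjusted p = 6.12e-05), or 105-fold. The difference between the genotypes in this contrast did not pass (3.13, SE 1.35, limma adjusted p = 0.406). Pthlh was lower in condylar cartilage than in MC in Fgfr2+/+ embryos, by -6.14 on the log2 scale (SE 1.29, adjusted p = 0.000719 by limma), and by -7.76 without the condylar library that held fragments. In Fgfr2+/S252W embryos it was at least 232-fold higher in MC than in the condylar cartilage. No difference between condylar cartilage and bone passed the test in Fgfr2+/+ embryos (log2 fold change -2.56, SE 1.45, 95% confidence interval -5.59 to 0.46), although sample quality weights gave -3.35 (limma adjusted p = 0.0172). Without both condylar replicates 3, and so without the library that held all 14 fragments, it was -4.19 (limma adjusted p = 0.0778).

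The 250 bases before the RefSeq transcript start (GRCm38.p6) of these ligand genes, and of the targets Ptch1 and Hhip, which differed in opposite directions between condylar cartilage and MC, are shown in the direction of transcription. They lie on the minus strand at chr1:74951673-74951922 (Ihh), chr6:147264014-147264263 (Pthlh), chr13:63565736-63565985 (Ptch1) and chr8:80058009-80058258 (Hhip). They stand in lower case throughout, since no GLI motif was found to set in capitals.
Ihh: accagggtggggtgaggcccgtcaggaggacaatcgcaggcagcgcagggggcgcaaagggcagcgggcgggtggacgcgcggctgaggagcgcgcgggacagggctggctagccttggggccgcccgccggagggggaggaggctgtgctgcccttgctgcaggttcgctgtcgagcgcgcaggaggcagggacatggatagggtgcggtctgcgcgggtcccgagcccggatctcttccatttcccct
Pthlh: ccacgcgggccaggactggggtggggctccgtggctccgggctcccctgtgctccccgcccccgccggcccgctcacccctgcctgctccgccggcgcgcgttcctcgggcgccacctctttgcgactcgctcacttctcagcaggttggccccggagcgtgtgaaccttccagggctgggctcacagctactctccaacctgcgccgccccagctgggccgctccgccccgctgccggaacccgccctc
Ptch1: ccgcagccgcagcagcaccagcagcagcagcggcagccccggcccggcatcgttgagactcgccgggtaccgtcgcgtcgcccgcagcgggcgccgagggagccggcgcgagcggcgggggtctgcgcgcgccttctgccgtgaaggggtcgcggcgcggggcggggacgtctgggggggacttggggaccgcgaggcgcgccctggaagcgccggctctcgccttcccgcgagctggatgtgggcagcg
Hhip: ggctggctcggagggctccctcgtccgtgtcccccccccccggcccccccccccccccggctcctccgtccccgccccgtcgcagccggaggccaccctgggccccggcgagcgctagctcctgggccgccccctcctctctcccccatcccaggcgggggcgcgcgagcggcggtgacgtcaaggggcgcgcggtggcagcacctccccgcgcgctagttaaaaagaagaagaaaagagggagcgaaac
The GLI motif GACCACCCA and its reverse complement TGGGTGGTC were searched exactly on both strands of windows from 250 bases before to 50 bases after each start. None of the 10 windows of the 8 members with one in the RefSeq table held the motif, and 83 of all 32851 windows did (0.253%). Allowing 1 mismatch in the 9 bases, a search added after the first result was seen, still gave none among the members, against 6.74% of all windows. The windows around the starts of these 4 genes were rich in G and C, at 72.7% for Ihh, 74.0% for Pthlh, 76.3% for Ptch1 and 73.7% for Hhip, against a median of 52.7% over all windows. The letters of a short window say nothing of sites elsewhere.

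Of the receptor genes, Pth1r (ENSMUSG00000032492, chr9:110722088-110743686, minus strand) followed Ihh. Its normalized counts in the condylar cartilage were 480, 446 and 618 CPM in Fgfr2+/+ and 410, 374 and 578 CPM in Fgfr2+/S252W embryos. In bone they were 72.8, 75.4 and 112 CPM in Fgfr2+/+ and 63.9, 76.1 and 91.6 CPM in Fgfr2+/S252W embryos. In MC they were 31.5, 18.6 and 16.0 CPM in Fgfr2+/+ and 19.7, 17.9 and 19.7 CPM in Fgfr2+/S252W embryos. Every condylar library lay above every bone library, and every bone library above every MC library. In Fgfr2+/+ embryos Pth1r was 22.7-fold higher in condylar cartilage than in MC (log2 fold change 4.50, SE 0.28, limma adjusted p = 4.43e-10) and 5.96-fold higher than in bone (log2 fold change 2.57, SE 0.20, limma adjusted p = 7.68e-09). The folds were 23.0 and 5.79 in Fgfr2+/S252W embryos.

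Ptch1 (ENSMUSG00000021466, chr13:63511533-63565520, minus strand), at once the IHH receptor and a target of the pathway, was also highest in the condylar cartilage. It had 358, 277 and 433 CPM there in Fgfr2+/+ and 351, 405 and 598 CPM in Fgfr2+/S252W embryos. Bone libraries had 129, 123 and 155 CPM in Fgfr2+/+ and 132, 125 and 130 CPM in Fgfr2+/S252W embryos. MC libraries had 362, 129 and 81.0 CPM in Fgfr2+/+ and 72.4, 97.7 and 127 CPM in Fgfr2+/S252W embryos. The single MC library at the condylar level was replicate 1 of Fgfr2+/+, the one with the fewest cartilage transcripts and the most Ibsp. Ptch1 was 2.58-fold higher in condylar cartilage than in bone in Fgfr2+/+ embryos (log2 fold change 1.37, SE 0.32, limma adjusted p = 0.00197) and 3.37-fold higher in Fgfr2+/S252W embryos (log2 fold change 1.75, SE 0.31, limma adjusted p = 0.000185). Against MC it was 2.11-fold higher in Fgfr2+/+ embryos (log2 fold change 1.08, SE 0.34, limma adjusted p = 0.014), and by 1.83 on the log2 scale without replicate 1 of that MC group (limma adjusted p = 1.48e-05). This call was lost with edgeR (adjusted p = 0.0568), in a fit of only the groups compared (limma adjusted p = 0.0747), without replicate 3 of Fgfr2+/+ MC (limma adjusted p = 0.0915) and without replicate 3 of Fgfr2+/+ condylar cartilage (limma adjusted p = 0.0521). In Fgfr2+/S252W embryos Ptch1 was 4.55-fold higher than in MC (log2 fold change 2.19, SE 0.36, limma adjusted p = 6.54e-05).

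Smo (ENSMUSG00000001761, chr6:29735694-29761365, plus strand), the membrane protein that passes the signal on, was the most even of the 9 genes, with normalized counts between 55.8 and 105 CPM over the 18 libraries. In Fgfr2+/+ embryos no tissue pair passed the test. In Fgfr2+/S252W embryos Smo was 1.68-fold higher in MC than in bone (log2 fold change 0.75, SE 0.17, limma adjusted p = 0.00158) and 1.38-fold higher in condylar cartilage than in bone (log2 fold change 0.47, SE 0.16, limma adjusted p = 0.0283). The second call was lost with no filter on low counts (limma adjusted p = 0.0699), without Fgfr2+/S252W bone replicate 1 (0.0733) or 2 (0.099), without condylar replicate 1 (0.0631) or 3 (0.114) and without both condylar replicates 3 (0.0863). The difference between the genotypes in the first was not past the threshold (log2 difference 0.42, SE 0.24, limma adjusted p = 0.519).

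**Figure D2:**
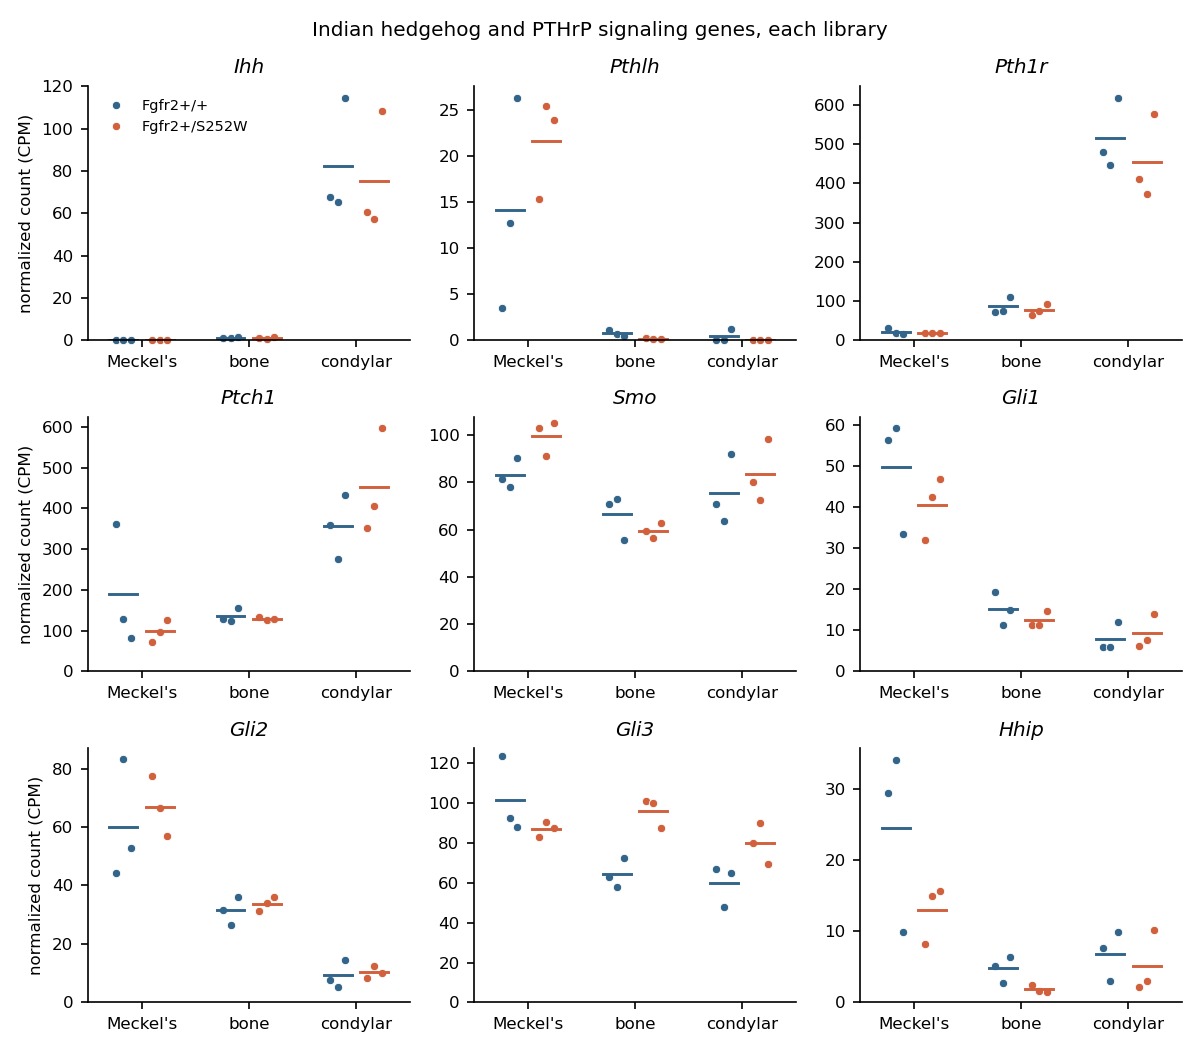
Normalized counts (CPM, linear axes from 0) of the 9 genes in MC, mandibular bone and condylar cartilage, with 1 point per library and a bar at each group mean of 3 libraries. Ihh, Pth1r and Ptch1 are highest in the condylar cartilage, Pthlh, Gli1, Gli2 and Hhip in MC.

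Gli1 and Gli2 were highest in MC, where no Ihh was counted. Gli1 (ENSMUSG00000025407, chr10:127329889-127341589, minus strand), an activator whose own transcription rises with hedgehog signal, had 56.4, 59.2 and 33.5 CPM in Fgfr2+/+ MC and 31.9, 42.5 and 46.6 CPM in Fgfr2+/S252W MC. In bone it had between 11.2 and 19.4 CPM, with a median of 13.01 CPM over 6 libraries. In the condylar cartilage it had 5.93, 5.91 and 12.0 CPM in Fgfr2+/+ and 6.25, 7.52 and 13.9 CPM in Fgfr2+/S252W embryos. MC stood above both other tissues in every library, and bone and condylar cartilage overlapped. Gli1 was 3.27-fold higher in MC than in bone in Fgfr2+/+ embryos (log2 fold change 1.71, SE 0.28, limma adjusted p = 0.000133) and 3.20-fold higher in Fgfr2+/S252W embryos (log2 fold change 1.68, SE 0.28, limma adjusted p = 0.000131). Gli1 was lower in the condylar cartilage than in MC by a log2 fold change of -2.72 in Fgfr2+/+ (SE 0.33, limma adjusted p = 2.08e-06) and of -2.26 in Fgfr2+/S252W embryos (SE 0.34, limma adjusted p = 2.36e-05). Against bone it was -1.01 in Fgfr2+/+ embryos (SE 0.34, limma adjusted p = 0.024), which was lost without Fgfr2+/+ bone replicate 1 (limma adjusted p = 0.0982) or Fgfr2+/+ condylar replicates 1 (0.12) or 2 (0.106), and -0.58 in Fgfr2+/S252W embryos (SE 0.34, limma adjusted p = 0.201).

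Gli2 (ENSMUSG00000048402, chr1:118834132-119053619, minus strand), the main activator that acts on the first signal, had between 44.4 and 83.1 CPM in MC, with a median of 61.7 CPM. Its range in bone was 26.5 to 36.2 CPM, with a median of 32.9 CPM. In the condylar cartilage it lay between 5.40 and 14.6 CPM, with a median of 9.16 CPM. The 3 ranges did not overlap. The fall from MC to the condylar cartilage was -2.75 on the log2 scale in Fgfr2+/+ (SE 0.31, limma adjusted p = 6.54e-07) and -2.73 in Fgfr2+/S252W embryos (SE 0.30, limma adjusted p = 5.89e-07). From bone to condylar cartilage it was -1.90 (SE 0.30, limma adjusted p = 4.9e-05) and -1.74 (SE 0.29, limma adjusted p = 8.73e-05). Gli2 was 1.798-fold higher in MC than in bone in Fgfr2+/+ embryos (limma adjusted p = 0.0105), which was lost without bone replicate 2 (limma adjusted p = 0.0537) or MC replicate 2 (0.0753), and 1.99-fold higher in Fgfr2+/S252W embryos (limma adjusted p = 0.00229).

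Gli3 (ENSMUSG00000021318, chr13:15463235-15730026, plus strand), which mostly represses targets when no hedgehog signal is present, varied least among the GLI genes, from 48.1 to 124 CPM over all libraries. In Fgfr2+/+ embryos it was higher in MC than in bone (log2 fold change 0.67, SE 0.17, limma adjusted p = 0.00569) and lower in condylar cartilage than in MC (log2 fold change -0.78, SE 0.18, limma adjusted p = 0.00125). The first of these calls was lost without replicate 1 of Fgfr2+/+ MC, which had the highest Gli3 of all libraries (log2 fold change 0.45, limma adjusted p = 0.0586). Neither passed in Fgfr2+/S252W embryos, at -0.15 (SE 0.17) and -0.12 (SE 0.18) on the log2 scale.

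Hhip (ENSMUSG00000064325, chr8:79970345-80058006, minus strand), whose product binds hedgehog ligands at the membrane and limits their reach, was highest on average in MC. MC libraries had 29.5, 34.1 and 9.90 CPM in Fgfr2+/+ and 8.19, 14.9 and 15.7 CPM in Fgfr2+/S252W embryos. Bone libraries had 5.13, 2.78 and 6.45 CPM in Fgfr2+/+ and 2.46, 1.65 and 1.43 CPM in Fgfr2+/S252W embryos. Condylar libraries had 7.60, 3.04 and 9.92 CPM in Fgfr2+/+ and 2.22, 2.97 and 10.2 CPM in Fgfr2+/S252W embryos. MC lay above bone without overlap in both genotypes, and overlapped the condylar cartilage in each. Hhip was 4.83-fold higher in MC than in bone in Fgfr2+/+ (log2 fold change 2.27, SE 0.49, limma adjusted p = 0.00175) and 6.59-fold higher in Fgfr2+/S252W embryos (log2 fold change 2.72, SE 0.63, limma adjusted p = 0.00224). Condylar cartilage differed from MC by -1.88 on the log2 scale in Fgfr2+/+ (SE 0.49, limma adjusted p = 0.00407) and -1.73 in Fgfr2+/S252W embryos (SE 0.60, limma adjusted p = 0.0257). The latter call was lost with edgeR (adjusted p = 0.056), with no filter on low counts (limma adjusted p = 0.0504), and without Fgfr2+/S252W condylar replicate 1 (0.162) or 2 (0.0819) or MC replicate 2 (0.0757) or 3 (0.0983). The 14 markers of perichondrium, fibroblasts and tendon summed to between 1167 and 1479 CPM in MC and to between 679 and 962 CPM in condylar cartilage. In bone the sum was between 1839 and 2544 CPM. The part of such cells in the levels of Gli1, Gli2 and Hhip was not tested.

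Counted over all 9 genes, tissue differences were common, as they were over the whole transcriptome. Between condylar cartilage and MC of Fgfr2+/+ embryos, 3 members were higher (21.9% of all genes tested were) and 5 lower (20.4%). Of the members in Fgfr2+/S252W embryos, 3 were higher (20.4%) and 4 lower (21.2%). Between condylar cartilage and bone, 3 were higher (18.1%) and 2 lower (20.2%) in Fgfr2+/+ embryos, and 4 were higher (15.6%) and 1 lower (17.8%) in Fgfr2+/S252W embryos. Between MC and bone, 5 were higher (14.4%) and 2 lower (17.6%) in Fgfr2+/+ embryos, and 5 were higher (18.4%) and 2 lower (19%) in Fgfr2+/S252W embryos. The median log2 fold change of the 9 genes from MC to condylar cartilage was -0.78 in Fgfr2+/+ embryos, beside 0.02 for all genes. Without replicate 1 of Fgfr2+/+ MC, 8 members passed between condylar cartilage and MC (40.8% of all genes in that fit) and 6 between MC and bone (34.9%). Log2 fold changes in condylar cartilage against MC were then 4.93 for Pth1r, -2.52 for Gli1, -2.92 for Gli2, -0.55 for Gli3 and -1.52 for Hhip. In MC against bone they were -2.34 for Pth1r, 1.53 for Gli1, 1.04 for Gli2 and 1.94 for Hhip.

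**Figure D3:**
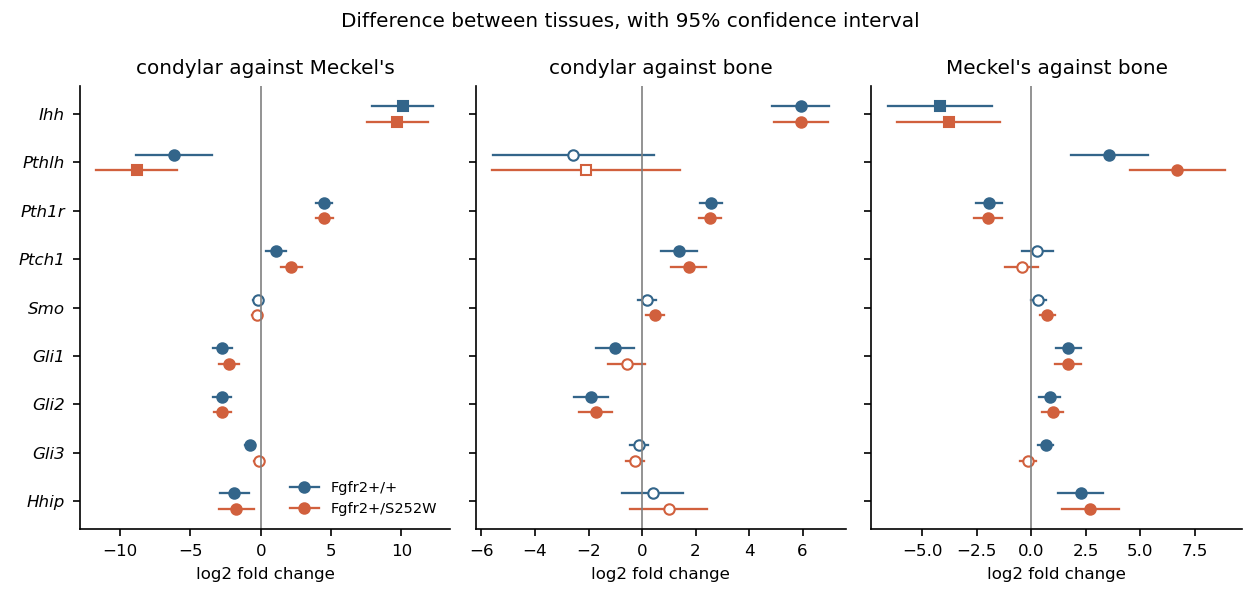
Fitted log2 fold changes of the 9 genes between tissues (x axis, each panel with its own scale) with 95% confidence intervals, in Fgfr2+/+ and Fgfr2+/S252W embryos. Filled symbols passed the limma test at an adjusted p of 0.05, and squares mark differences against a group at 0 fragments, whose fitted size is no bound. Ihh, Pth1r and Ptch1 lie to the right and Gli1, Gli2 and Hhip to the left in condylar cartilage against MC.

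Per length, in FPKM (the normalized count divided by the gene's length), levels can be set side by side between genes. In the condylar cartilage Pth1r led with a median of 186 FPKM over 6 libraries, followed by Ptch1 at 88.7 FPKM, Ihh at 27.2 FPKM and Smo at 20.2 FPKM. Gli3 had 8.17 FPKM there, and Gli1, Gli2 and Hhip had 1.88, 1.33 and 1.16 FPKM. In MC the 8 genes detected lay closer together, from 26.1 FPKM for Ptch1 and 24.0 FPKM for Smo down to 7.71 FPKM for Pth1r and 3.34 FPKM for Hhip, with Pthlh and Gli1 both at 12.2 FPKM. In bone Pth1r and Ptch1 were level at 30.5 and 30.0 FPKM, while Ihh had 0.466 FPKM and Pthlh 0.220 FPKM. The ranges of Ihh and Smo overlapped in the condylar cartilage, as did those of Pth1r and Ptch1 in bone.

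Other genes of the pathway were read from lists without the 9 members. Their counts in condylar cartilage against MC stand beside 21.9% of all genes higher and 20.4% lower in Fgfr2+/+ embryos, and 20.4% higher and 21.2% lower in Fgfr2+/S252W embryos. Among 7 genes for other ligands and for the lipid modification, release and transport of hedgehog proteins, 5 were tested. In Fgfr2+/+ embryos 4 of these were higher and none lower in condylar cartilage than in MC. They included Scube3 (173.9 against 40.0 CPM, limma adjusted p = 3.76e-05) and Scube1 (210.3 against 123 CPM, limma adjusted p = 0.0049), whose secreted products help to carry hedgehog, and Disp1 (40.9 against 13.1 CPM, limma adjusted p = 0.000481), which releases it from the cell. In Fgfr2+/S252W embryos 3 were higher and 1 lower. The lower one was Scube2 (0.940 against 15.5 CPM, limma adjusted p = 0.00148), and Scube1 did not pass (251.9 against 188 CPM, limma adjusted p = 0.237). Without replicate 1 of Fgfr2+/+ MC, 3 were higher in Fgfr2+/+ embryos. The other hedgehog ligand genes, named after their values were seen, were low throughout, with no fragment of Shh in 18 libraries and at most 0.874 CPM of Dhh. Ihh was the ligand gene with the highest normalized count in condylar cartilage and bone, and in MC no hedgehog ligand gene exceeded 0.256 CPM.

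Among 7 receptor and co-receptor genes, 5 were tested, of which 1 was higher and 3 lower in condylar cartilage than in MC in both genotypes. Boc, a co-receptor that aids ligand binding, had 6.30 CPM in the condylar cartilage and 99.5 CPM in MC of Fgfr2+/+ embryos (log2 fold change -3.85, SE 0.51, limma adjusted p = 5.62e-06). Gas1, another co-receptor, had 1.17 against 27.5 CPM (log2 fold change -5.76, SE 0.98, limma adjusted p = 8.98e-05). Gpc3, a glypican that competes for the ligand, was higher, at 305 against 199 CPM (log2 fold change 0.61, SE 0.14, limma adjusted p = 0.00144). Boc was also higher in MC than in bone (19.6 CPM in Fgfr2+/+ bone, limma adjusted p = 0.000388), like Gli1 and Gli2. Gas1 did not pass there, with 39.0 CPM in Fgfr2+/+ bone (limma adjusted p = 0.101).

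Inside the cell, 17 genes of signal relay and GLI processing were tested, and 1 was higher and 5 lower in condylar cartilage than in MC in Fgfr2+/+ embryos, and 3 higher and 7 lower in Fgfr2+/S252W embryos. The number lower in Fgfr2+/+ embryos was 6 without replicate 1 of Fgfr2+/+ MC. Gsk3b, a kinase that takes part in GLI processing, was the one that rose, from 188 to 946 CPM (log2 fold change 2.31, SE 0.19, limma adjusted p = 1.12e-08). Sufu, which holds GLI proteins back, fell from 31.6 to 9.29 CPM (log2 fold change -1.77, SE 0.27, limma adjusted p = 2.62e-05) and Evc, a ciliary partner of SMO, from 16.4 to 4.82 CPM (log2 fold change -1.74, SE 0.29, limma adjusted p = 6.67e-05). Of 14 genes known to be induced by hedgehog in mesenchyme 11 were tested, and 2 were higher and 7 lower in the condylar cartilage of Fgfr2+/+ embryos, and 2 higher and 6 lower in that of Fgfr2+/S252W embryos. Those with the smallest adjusted p in Fgfr2+/+ embryos all fell. They were Ccnd2, a cyclin gene, from 432 to 79.9 CPM (limma adjusted p = 3.03e-09), Foxf1, a forkhead factor, from 22.2 to 0.110 CPM (limma adjusted p = 4.88e-07), and Ccnd1, another cyclin gene, from 119 to 35.04 CPM (limma adjusted p = 3.02e-05). The list median was -1.08 on the log2 scale, beside 0.02 for all genes.

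Downstream of PTHrP, 28 genes were listed and 25 tested, with 6 higher and 11 lower in condylar cartilage than in MC in Fgfr2+/+ embryos, and 5 higher and 11 lower in Fgfr2+/S252W embryos. Mef2c, a factor that drives hypertrophy and that PTHrP restrains, had 961 against 132 CPM in Fgfr2+/+ embryos (log2 fold change 2.96, SE 0.25, limma adjusted p = 1.77e-08), and Mef2d 291 against 86.7 CPM (log2 fold change 1.81, SE 0.21, limma adjusted p = 8.85e-07). Zfp521, which opposes hypertrophy, had 46.6 against 317 CPM (log2 fold change -2.67, SE 0.25, limma adjusted p = 8.81e-08). Of 16 genes of prehypertrophic and hypertrophic chondrocytes, 11 were higher and 1 lower in the condylar cartilage of Fgfr2+/+ embryos. Col10a1, the collagen gene of hypertrophic cartilage, had 2874 against 4.68 CPM (log2 fold change 9.37, SE 0.77, limma adjusted p = 1.39e-08) and Panx3, a channel gene, 2021 against 62.7 CPM (limma adjusted p = 4.9e-09). Summed over the list, these genes had between 7675 and 17443 CPM in condylar cartilage, between 9641 and 13129 CPM in bone and between 331 and 1648 CPM in MC. Bone and condylar cartilage thus overlapped on this list, some of whose genes osteoblasts also express. Without replicate 1 of Fgfr2+/+ MC, 6 PTHrP genes were higher and 10 lower, and 12 hypertrophic genes were higher and 1 lower.

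**Figure D4:**
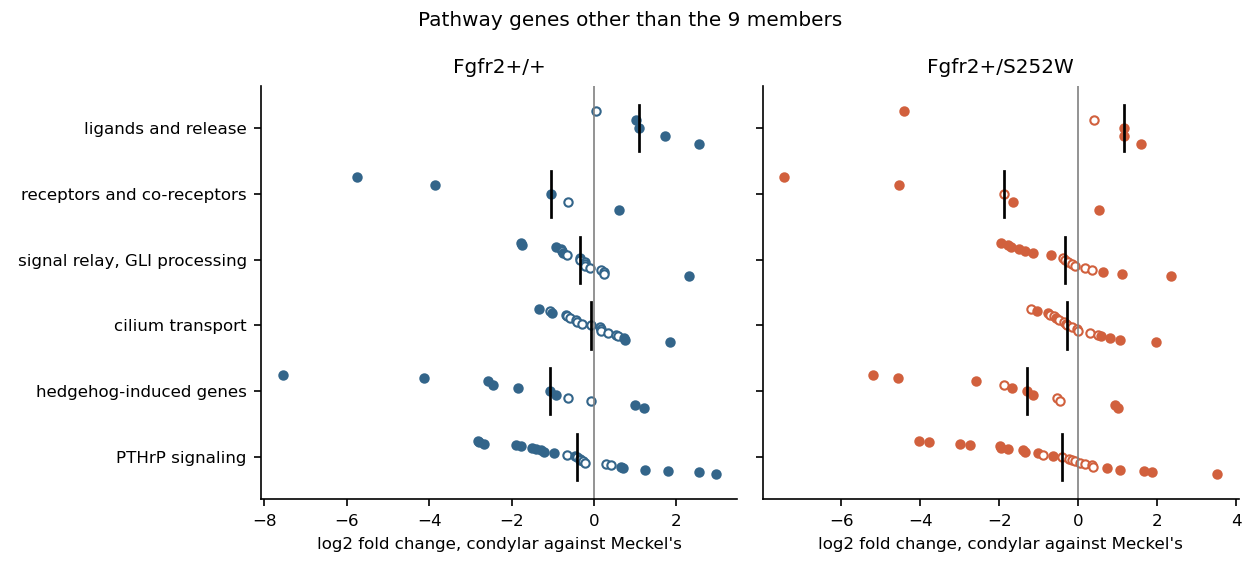
Log2 fold changes between condylar cartilage and MC (x axis) of the tested genes of 6 pathway lists without the 9 members, with 1 point per gene, in Fgfr2+/+ (left) and Fgfr2+/S252W (right) embryos. Filled points passed the limma test at an adjusted p of 0.05 and black bars are list medians. Hedgehog-induced genes and co-receptors lie mostly to the left, at medians of -1.08 and -1.04 in Fgfr2+/+ embryos.

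The genes whose levels most resembled the members over the 18 libraries were found by Pearson's r of log2 normalized counts. These values describe libraries that share tissues and embryos. Pth1r was the gene most like Ihh among all genes kept (r = 0.988), and after the group means were subtracted r was 0.629. Next came Klhl13 (0.982), Ugdh (0.982), Crybg3 (0.980) and Smim5 (0.980). Their r fell to 0.148, -0.031, 0.412 and 0.262, in the same order, after the group means were subtracted. Pthlh was most like Fst (0.985), Ly6e (0.985), Col14a1 (0.977), Runx1t1 (0.976) and Smoc1 (0.976). Here r stayed at 0.924 for Fst, the gene of the activin inhibitor follistatin, after the group means were subtracted. For the others, in that order, it was 0.905, 0.776, 0.916 and 0.730. Gli1 was most like Frem1 (0.969), Maf (0.967), Cpxm1 (0.957), Nlgn2 (0.955) and Rbfox2 (0.953). Within groups r was 0.869 with Frem1 and 0.764, 0.854, 0.687 and 0.491 with the others in that order. Among the members, Gli1 and Hhip had an r of 0.767 over all libraries and 0.815 within groups, and Gli1 and Ptch1 had -0.488 over all libraries and 0.613 within groups. Ptch1 and Hhip had 0.0186 over all libraries and 0.686 within groups. Both condylar replicates 3, highest of their groups for Ptch1, Gli1 and Hhip, entered the within-group values. So did replicate 1 of Fgfr2+/+ MC, with 362 CPM of Ptch1 and 3.48 CPM of Pthlh. Values of r without these libraries were not computed. Condylar cartilage had the highest mean of Ptch1 and the lowest of Gli1 in both genotypes, while between MC and bone Ptch1 did not pass the test in either.

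Among the condylar libraries, replicate 3 had the highest Ihh, Pth1r, Ptch1, Smo, Gli1 and Hhip of its group in both genotypes. The osteoblast and hypertrophic marker sums, from lists that share Runx2, Sp7, Dlx5, Alpl, Ibsp and Spp1, were also highest in these 2 libraries. The part of these markers in the levels was not tested. With both libraries left out, Ihh remained higher in condylar cartilage than in bone (log2 fold change 5.68 in Fgfr2+/+ and 5.69 in Fgfr2+/S252W embryos), as did Pth1r (2.43 and 2.36).

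Whether the S252W mutation changed these genes was asked within each tissue. In bone, MC and condylar cartilage alike, 0 of 9 members passed the limma test, where 21 genes passed in bone (0.141% of those tested) and none in either cartilage (0%). The counts of members were also 0 with edgeR and with DESeq2. At an unadjusted p below 0.05, 2 members lay in bone (8.23% of all genes did), 1 in MC (14.8%) and 1 in the condylar cartilage (3.37%). The groups of 3 libraries did not overlap for 3 members in bone (20.2% of all genes), 1 in MC (12.5%) and 1 in the condylar cartilage (9.37%).

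Gli3 had the smallest p. In bone it had 62.8, 57.9 and 72.4 CPM in Fgfr2+/+ and 101, 99.9 and 87.7 CPM in Fgfr2+/S252W embryos. Every Fgfr2+/S252W library lay above every Fgfr2+/+ library (log2 fold change 0.58, SE 0.16, 95% confidence interval 0.25 to 0.91, limma adjusted p = 0.204). With sample quality weights this was called (log2 fold change 0.63, limma adjusted p = 0.00531), in a fit that called 756 genes. In the condylar cartilage Gli3 had 67.0, 48.1 and 64.9 CPM in Fgfr2+/+ and 80.0, 90.2 and 69.4 CPM in Fgfr2+/S252W embryos, again without overlap (log2 fold change 0.43, SE 0.17, limma adjusted p = 0.999). In MC it had 124, 92.7 and 88.0 CPM in Fgfr2+/+ and 82.8, 90.6 and 87.4 CPM in Fgfr2+/S252W embryos, with overlap (log2 fold change -0.24, SE 0.18, limma adjusted p = 0.563), and -0.049 without replicate 1 of Fgfr2+/+. The bone and condylar libraries of the mutants were thus higher and those of MC were not, but the differences between these effects did not pass the test for MC against bone (log2 difference -0.82, SE 0.24, limma adjusted p = 0.214) or for condylar cartilage against MC (0.66, SE 0.25, limma adjusted p = 0.433). Without that library they were -0.65 and 0.49.

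Hhip and Pthlh were lower in every Fgfr2+/S252W bone library than in every Fgfr2+/+ bone library, by values given above, and did not pass. Hhip differed by -1.36 on the log2 scale (SE 0.64, 95% confidence interval -2.69 to -0.03, limma adjusted p = 0.601). Pthlh, from 2 to 18 fragments, differed by -1.89 (SE 1.26, limma adjusted p = 0.779). Other cell types moved with genotype in the same bone libraries. The 11 endothelium and blood markers summed to between 530 and 814 CPM in Fgfr2+/S252W and to between 1421 and 1751 CPM in Fgfr2+/+ embryos. The 12 osteoclast markers summed to between 2111 and 2926 CPM against 1125 to 1474 CPM, and the 12 skeletal muscle markers to between 61.0 and 167 CPM against 167 to 916 CPM. The part of these cells in the bone values of Gli3, Hhip and Pthlh was not tested. Hhip also had the lower mean in Fgfr2+/S252W MC (12.9 against 24.5 CPM, log2 fold change -0.91, SE 0.48, limma adjusted p = 0.385) and condylar cartilage (5.12 against 6.85 CPM, log2 fold change -0.76, SE 0.60, limma adjusted p = 0.999). Both moved with single libraries. The difference in MC was -0.61 without replicate 1 of Fgfr2+/+, -1.38 without replicate 3 of Fgfr2+/+ and -0.55 without replicate 1 of Fgfr2+/S252W. In condylar cartilage it lay between -1.25 without replicate 3 and -0.28 without replicate 1 of Fgfr2+/S252W embryos.

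In MC the differences of Pthlh and Ptch1 also moved with single Fgfr2+/+ libraries. Pthlh had a log2 fold change of 1.24 between the genotypes (SE 0.49, limma adjusted p = 0.249), of 0.17 without replicate 1 of Fgfr2+/+ and of 1.86 without replicate 3 (limma adjusted p = 0.0746). Ptch1 had -0.79 (SE 0.39, limma adjusted p = 0.345), -0.09 without replicate 1 and -1.24 without replicate 3 (limma adjusted p = 0.0852). Smo was the one member whose MC groups did not overlap, with 81.4, 78.0 and 90.1 CPM in Fgfr2+/+ and 103, 91.0 and 105 CPM in Fgfr2+/S252W embryos (log2 fold change 0.27, SE 0.18, limma adjusted p = 0.488). Replicate 1 of Fgfr2+/+ MC also stood apart in its cartilage matrix sum and in Ibsp, as described above. Smo in that library, at 81.4 CPM, lay between the other Fgfr2+/+ MC libraries, and the log2 fold change of Smo was 0.26 without it. The part of these markers in the MC values of Pthlh, Ptch1 and Smo was not tested.

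In the condylar cartilage, where Ihh, Pth1r and Ptch1 were high, the intervals were narrow enough to bound a change. The 95% confidence interval of the log2 fold change between the genotypes was -0.62 to 0.28 for Ihh, -0.59 to 0.18 for Pth1r and -0.32 to 0.95 for Ptch1. Mean normalized counts were 75.5 against 82.5 CPM, 454 against 515 CPM and 451 against 356 CPM in Fgfr2+/S252W and Fgfr2+/+ embryos. For Gli1 and Gli2, with 64 to 159 fragments per condylar library, the intervals were wider, at -0.66 to 0.95 and -0.47 to 1.00.

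**Figure D5:**
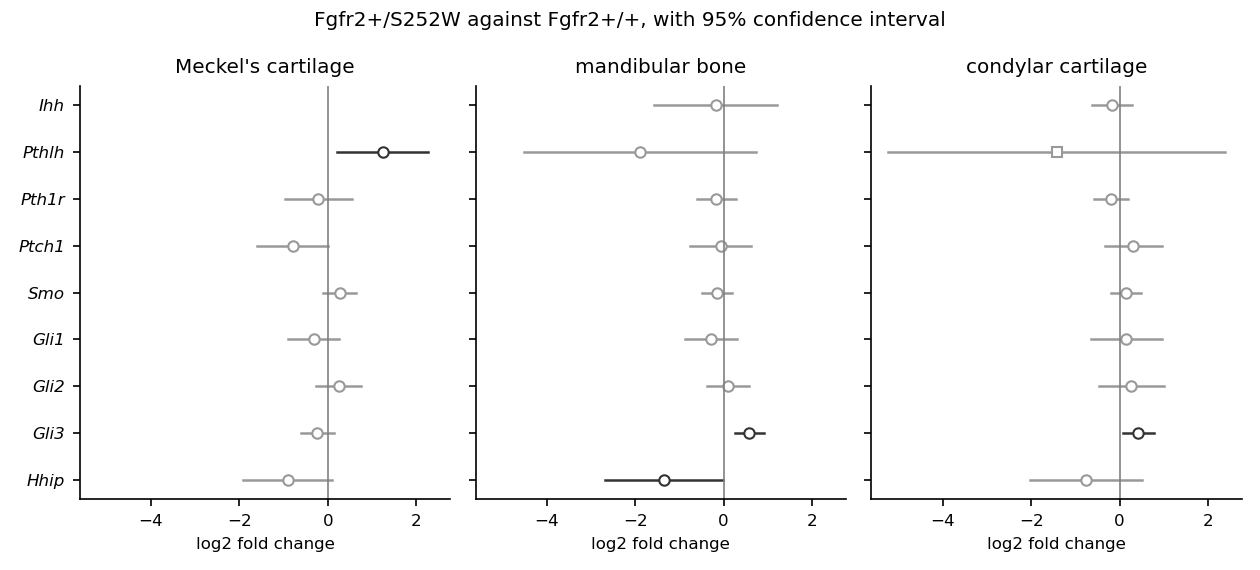
Log2 fold changes of the 9 genes in Fgfr2+/S252W against Fgfr2+/+ embryos (x axis) with 95% confidence intervals, in MC, mandibular bone and condylar cartilage. Dark symbols had an unadjusted p below 0.05, the square marks a mutant group at 0 fragments, Ihh in MC is left out because no fragment was counted, and no gene passed the adjusted threshold.

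Direct tests of whether a genotype effect differed between tissues called 0 of 9 members in each of the 3 pairs of tissues, where 12 of all genes passed for MC against bone (0.0806%) and none for the other pairs. An unadjusted p below 0.05 was found for 2 members in condylar cartilage against MC (9.23% of all genes), for 2 in MC against bone (11.2%) and for none in condylar cartilage against bone (3.04%). Gli3 was among them in both pairs, beside Ptch1 in condylar cartilage against MC (log2 difference 1.11, SE 0.49, limma adjusted p = 0.515) and Pthlh in MC against bone (log2 difference 3.13, SE 1.35, limma adjusted p = 0.406). Without replicate 1 of Fgfr2+/+ MC these were 0.41 and 2.04. In the other pathway lists no gene passed between the genotypes in any tissue.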

How the data were processed

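Tissues were captured by laser from 6 embryos and their RNA was amplified before paired-end sequencing. The deposited counts are fragments per gene, which the authors obtained with STAR on mm10 and featureCounts 1.5.0-p1 on an Ensembl release 75 annotation without nonsense-mediated decay transcripts. Strand was not used, and fragments shared by genes or places were not counted. Gli1 shares 55 bases with Arhgap9 on the other strand, and Hhip 175 bases with Gm27820, so fragments there are missing from both genes of a pair. Library totals were 8218548 to 15585778 fragments (median 10581032). Mitochondrial genes took 19.4% to 38.1% of them and Gm42418 5.58% to 39.4%.

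Genes were kept by edgeR filterByExpr (minimum count 10), because the study's filter (above 1 FPKM in 50% of libraries) drops Ihh and Pthlh. TMM factors, voom, 1 mean per group and eBayes followed (R 4.3.3, limma 3.58.1, edgeR 4.0.16, DESeq2 1.42.0), with 12 contrasts, two-sided tests, 12 residual degrees of freedom and Benjamini-Hochberg adjustment over all 14881 genes at 0.05. Intervals are 95%. The procedure was tested on simulated data. FPKM are TMM-scaled counts per kilobase of the length in the files.

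Members and lists were chosen with earlier results of these data known. All 9 members are described, and up to 3 genes a list, ranked by adjusted p in the comparison described, plus the 5 genes most like Ihh, Pthlh and Gli1. The values of Scube1 in Fgfr2+/S252W embryos, of Boc and Gas1 in bone, and of Shh and Dhh were added after they were seen. Replicate numbers do not pair the genotypes by their labels. Same-numbered libraries of one genotype were inferred to come from one embryo. Their deviations from the group means correlated at -0.0380 to 0.0616 as a group average, and the consensus correlation within embryos was -0.0227. Alternatives were other tests, filters, normalizations, weights, blocks and each library left out, and, chosen after seeing the data, both condylar replicates 3 left out. The motif search with 1 mismatch was also added then, and Gli1 had no promoter window in the RefSeq table. A planned comparison of protein sequences was not done here.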

Additional observations from a re-analysis of the deposited data

How the results depend on the processing

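The count of members past the threshold stayed within 1.5 times its main value in 216 of 217 refits over the 12 comparisons. The exception was Fgfr2+/S252W against Fgfr2+/+ in bone, where sample quality weights gave 1 member, Gli3, in place of 0, and the cause was not tested. With a replicate block for the embryo (tissue comparisons and interactions), the replicate number (genotypes) or the embryo as a random effect, the counts were 8, 5 and 7 in Fgfr2+/+ and 7, 5 and 7 in Fgfr2+/S252W embryos for condylar cartilage against MC, condylar cartilage against bone and MC against bone, and 0 for the genotypes and interactions, so that no count changed. Of 1393 refitted log2 fold changes, 24 were no longer past the threshold, 5 came past it and 14 turned sign, none of the last being past it before or after.

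The changes of sign came with single libraries left out, and the ranges over those refits follow on the log2 scale. Between the genotypes in bone, Ihh ran from -0.45 to 0.082, Pth1r from -0.29 to 0.046, Ptch1 from -0.13 to 0.037 and Gli2 from -0.010 to 0.21. In MC Pth1r ran from -0.40 to 0.16. In condylar cartilage Ihh ran from -0.42 to 0.090, Pthlh from -2.32 to 0.21, Gli1 from -0.11 to 0.47 and Gli2 from -0.041 to 0.63. Between tissues, Gli3 ran from -0.19 to 0.027 for condylar cartilage against MC in Fgfr2+/S252W and from -0.21 to 0.034 for condylar cartilage against bone in Fgfr2+/+ embryos, and Ptch1 from -0.44 to 0.71 for MC against bone in Fgfr2+/+ embryos. Of the lost calls, those of Ptch1, Smo, Gli1, Gli2, Gli3 and Hhip stand in the report. Ihh between MC and bone was lost with quality weights in Fgfr2+/+ embryos (limma adjusted p = 0.0686) and without Fgfr2+/S252W MC replicate 1 in Fgfr2+/S252W embryos (0.059). Calls gained were Hhip in condylar cartilage against bone of Fgfr2+/S252W embryos with DESeq2 (adjusted p = 0.033) and, with quality weights, Gli3 in bone (limma adjusted p = 0.00531), Pthlh in condylar cartilage against bone of Fgfr2+/+ (0.0172), Gli1 in condylar cartilage against bone of Fgfr2+/S252W (0.0339) and Smo in condylar cartilage against MC of Fgfr2+/S252W embryos (0.05).

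Depth limits Pthlh in bone and condylar cartilage and Ihh in bone, which rest on at most 32 fragments per library.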

Other observations

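Genes of transport in the primary cilium, the organelle through which hedgehog signals pass, were counted in the same way. Of 19 such genes, 3 were higher and 2 lower in condylar cartilage than in MC in Fgfr2+/+ embryos, beside 21.9% and 20.4% of all genes, and 4 were higher and 3 lower in Fgfr2+/S252W embryos, beside 20.4% and 21.2%. Without replicate 1 of Fgfr2+/+ MC the first counts were 2 higher and 5 lower. Ift20, a gene of intraflagellar transport, had 75.5 CPM in condylar cartilage and 20.3 CPM in MC of Fgfr2+/+ embryos (log2 fold change 1.85, SE 0.25, limma adjusted p = 6.12e-06), and Dync2h1, the heavy chain of the retrograde motor, had 27.9 and 69.4 CPM (log2 fold change -1.34, SE 0.28, limma adjusted p = 0.000606).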
